A study of Mus musculus with 2 samples.

Results

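The SLAM family of lymphocyte surface receptors and their adaptor SAP were examined in P5424, a mouse T-cell line. They were taken as the 10 gene names Slamf1, Slamf6, Slamf7, Slamf8, Slamf9, Cd48, Cd84, Cd244, Ly9 and Sh2d1a, which encodes SAP, among the non-control probes of 2 one-colour Agilent mouse arrays. These names covered 14 of 55681 probes and 10 of 22221 named genes, and no further probe pointed to any of them through its transcript accession. Per the labels, both arrays hold untreated P5424 cells that carry a knockout of Rag2 and of P53, kept in RPMI1640 medium to which 2-mercaptoethanol (0.1 mM) and fetal bovine serum (10%) were added. They form 1 group, with no second genotype, treatment or time, and are called replicate 1 and replicate 2. P5424 is a single cell line, and nothing in the labels states that the replicates came from different cultures, so their spread may be only technical. No test between groups was possible, and 2 arrays limit the precision of every value.

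SLAM receptors belong to the immunoglobulin superfamily and sit on lymphocytes and other blood cells. Most of them bind a copy of themselves on the neighbouring cell, whereas Cd244 binds Cd48. Several carry in their cytoplasmic tail the immunoreceptor tyrosine-based switch motif (a threonine, any residue, a tyrosine, any pair of residues, then valine or isoleucine), which is bound by the single SH2 domain of SAP. SAP in turn recruits the kinase Fyn. In the thymus, Slamf1 and Slamf6 on double-positive thymocytes are known for signalling through SAP in the development of natural killer T cells, and loss of SAP in humans causes X-linked lymphoproliferative disease.

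The probes are 60-base DNA strands, and those of Slamf6 and Ly9 shown here read through the switch motif itself. Capitals mark the 18 bases of the motif's codons, found by translating each probe in every forward frame and keeping frames with no stop codon. The Cd48 probe is shown beside them because Cd48 is held in the membrane by a lipid anchor and has no tail, and no frame of this probe held the motif. Sequences are 5′ to 3′ as in the files, and positions are on the mouse build mm9.
Slamf6, chr1:173871767-173871826, plus strand: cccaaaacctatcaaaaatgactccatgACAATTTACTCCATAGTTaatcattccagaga
Ly9, chr1:173523555-173523614, minus strand: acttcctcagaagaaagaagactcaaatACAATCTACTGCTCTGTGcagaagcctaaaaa
Cd48, chr1:173629721-173629780, plus strand: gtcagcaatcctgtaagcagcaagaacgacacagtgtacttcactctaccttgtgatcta
Across the array, 166 of 55681 probes (0.298%) held such a motif, 2 of them from the SLAM family.

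A probe was called detected when both arrays carried the scanner software's flag for a signal well above background, and a gene when any of its probes was. Of the 10 genes, 7 were detected, against a background of 51.7% of all named genes on the array. The detected genes were Slamf1, Slamf6, Cd48, Cd84, Cd244, Ly9 and Sh2d1a. The 3 that were not well above background on either array were Slamf7, Slamf8 and Slamf9. By probe, 11 of 14 were detected, against 40.1% of all probes. All 4 genes with 2 probes were detected with both. Of named genes with 2 probes, 64.4% were detected with at least 1 of them, a looser rule than both. Of the 6 genes with 1 probe, 3 were detected and 3 were not, close to the array's share of 45.1% detected among 1-probe genes. The count was also 7 where 1 array sufficed (54.3% of all named genes) and where the signal had to exceed every negative control spot (45.8%). It was 8, with Slamf9 added, where the software's weaker flag of a positive and significant signal was used (67.5%). Signals below are background-subtracted intensity units, and values in log2 are relative to the 75th percentile of the same array (324 units on replicate 1 and 299 on replicate 2), as mean ± SD of the 2 arrays (n = 2). A signal was compared with negative controls and between arrays for the same probe, and levels of different genes were not ranked, since probes differ in how strongly they bind.

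**Figure D1:**
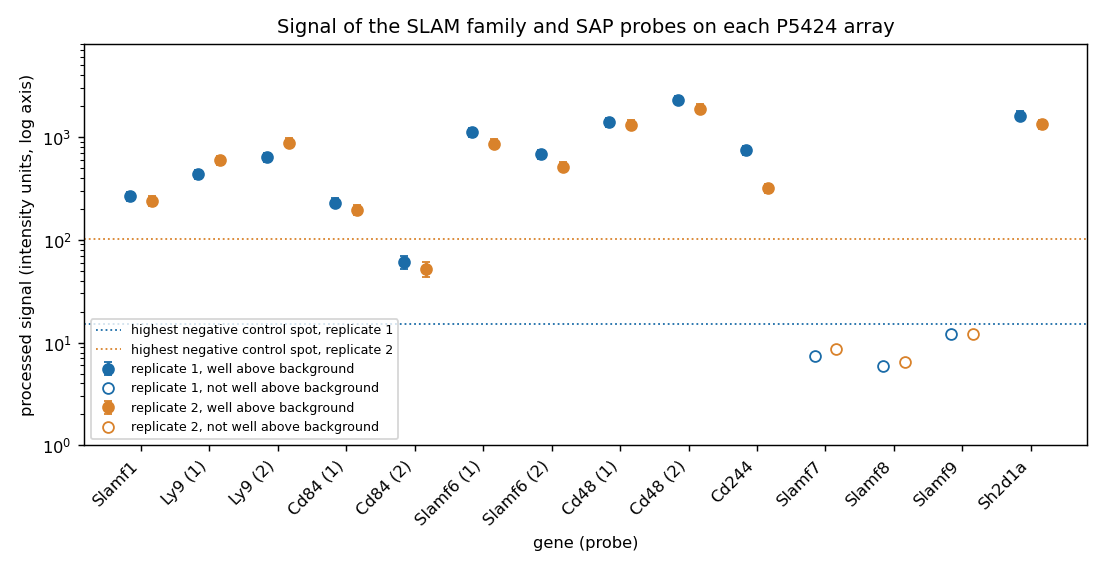
Processed signal (intensity units, log axis) of each SLAM family and SAP probe on replicate 1 and replicate 2. Numbers in brackets order the probes of a gene along its transcript, bars on filled points are the scanner software's error, open points are not well above background, and dotted lines are each array's highest negative control spot. Of the 14 probes, 11 are filled on both arrays, and the open points of Slamf7, Slamf8 and Slamf9 lie below both lines.

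Slamf1, Ly9, Cd84 and Slamf6, which bind their own kind and are known to signal through SAP, were all detected in P5424. Slamf1 (CD150), a self-binding receptor of thymocytes and activated T cells, had signals of 263 units on replicate 1 and 240 on replicate 2. Its log2 value was -0.31 ± 0.01 (chromosome 1, 173730343 to 173730402). Both arrays gave nearly the same Slamf1 value after scaling. Ly9 (CD229), present on T and B cells, was measured by 2 probes on the minus strand. The motif-bearing Ly9 probe shown above had 437 units on replicate 1 and 592 on replicate 2. The other, at 173518744 to 173518790, had 636 units on replicate 1 and 881 on replicate 2. Both Ly9 probes were lower on replicate 1. Their log2 values were 0.71 ± 0.39 and 1.27 ± 0.42.

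Cd84, a self-binding receptor of B cells, T cells and platelets, was also measured by 2 probes, which met the detection rule with different margins. The probe that the files place over 2231 bases of chromosome 1 (173816502 to 173818732), and which therefore joins separate genomic segments, had 230 units on replicate 1 and 195 on replicate 2. The probe at 173820027 to 173820086 had 61.1 units on replicate 1 and 52.4 on replicate 2, with 1 of the 308 negative control spots of replicate 2 above it. That control spot, at 101 units, stood apart from the next highest at 17.6 units. The log2 values of the Cd84 probes were -0.55 ± 0.08 and -2.46 ± 0.07. Slamf6 (Ly108), which signals through SAP in thymocytes, had 1114 units on replicate 1 and 857 on replicate 2 with its motif-bearing probe. Its second probe, at 173873620 to 173873679, had 674 units on replicate 1 and 514 on replicate 2. Both Slamf6 probes were higher on replicate 1, with log2 values of 1.65 ± 0.18 and 0.92 ± 0.19.

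Cd48 and Cd244 encode a ligand and its receptor, and both were detected. The Cd48 probe at 173635201 to 173635260 had 2294 units on replicate 1 and 1884 on replicate 2, a log2 value of 2.74 ± 0.12. The Cd48 probe shown above had 1387 units on replicate 1 and 1312 on replicate 2, or 2.12 ± 0.03. In P5424 the Cd48 signal was at least 13.0 times that of the highest negative control spot of its array with either probe. Cd244 (2B4), best known on natural killer cells, had 745 units on replicate 1 and 318 on replicate 2. Its log2 value was 0.65 ± 0.78, the widest spread among the detected genes of the family.

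The Cd244 probe (chromosome 1, 173515388 to 173515447) differed from the rest of the family in its sequence. It shared a run of at least 15 bases with 16 other probes of the array, 12 in the same orientation and 4 in the opposite one. Of the other 13 SLAM family and SAP probes, 10 shared no such run with any probe, and the highest count among the remaining 3 was 2. The longest shared run is shown because it is the stretch that other transcripts could also carry, and it spans bases 3 to 23 of the probe.
Cd244, chr1:173515390-173515410, plus strand: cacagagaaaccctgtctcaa
Of the 16 probes, 14 (87.5%) were detected, against 40.1% of all probes, with signals of 237 to 246998 units among the 10 in the same orientation and 122 to 2751 units among the 4 in the opposite one. The part that other transcripts have in the Cd244 signal was not tested. With Cd244 left out, 6 of the other 9 genes were detected.

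Slamf7, Slamf8 and Slamf9 gave no signal well above background. Slamf7 (CRACC), found on natural killer and plasma cells, had 7.37 units on replicate 1 and 8.63 on replicate 2 (173562534 to 173562593). At least as much signal came from 7 of the 308 negative control spots of replicate 1 and from 11 of those of replicate 2. Slamf8, of macrophages, had 5.86 units on replicate 1 and 6.49 on replicate 2 (174512067 to 174512126). For Slamf8, 284 and 272 negative control spots were at or above it. The scanner software's error was at least 100% of the signal for Slamf7 and Slamf8 on both arrays. Their order among the controls therefore does not measure a level. Slamf9, of macrophages and dendritic cells, had 12.2 units on replicate 1 and 12.1 on replicate 2 (174408455 to 174408514). Only 1 control spot of replicate 1 and 6 of replicate 2 reached that signal, and the scanner software marked Slamf9 as positive and significant on both arrays though not as well above background. Each of these receptors has 1 probe, so these values bound what that probe saw and are no statement that the transcript is absent. For comparison, the lowest signal called well above background was 28.9 units on replicate 1 and 31.1 on replicate 2.

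SAP itself was detected. The Sh2d1a probe lies on chromosome X at 39875116 to 39875175 of mm9 and had 1611 units on replicate 1 and 1329 on replicate 2. Its log2 value was 2.23 ± 0.11, and no negative control spot of either array reached its signal. The related adaptors Sh2d1b1 (EAT-2) and Sh2d1b2 (ERT), which serve SLAM receptors mainly in innate cells, were not well above background on either array. The line therefore gave a signal for the T-cell adaptor of the family and none well above background for the other 2.

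Of 26 genes known to act with SLAM receptors or SAP, 23 (88.5%) were detected, against 51.7% of all named genes. Cd2, an adhesion receptor that also binds Cd48 in the mouse, had 925 units on replicate 1 and 717 on replicate 2, a log2 value of 1.39 ± 0.18. Fyn, the kinase that SAP recruits, had 1101 units on replicate 1 and 1003 on replicate 2, or 1.76 ± 0.01. Lck, the other SRC-family kinase of T cells, had a value of 8.73 ± 0.19. Thus both SRC-family kinases and a second Cd48-binding receptor were measured beside SAP. Csk, which restrains these kinases, had 0.83 ± 0.16. The phosphatases Ptpn6 (SHP-1) and Ptpn11 (SHP-2), which can bind switch motifs in place of SAP, had 3.43 ± 0.06 and 4.93 ± 0.26. Also detected were, among others, the lipid phosphatase Inpp5d (SHIP-1), the exchange factors Vav1 and Arhgef7, the kinase Prkcq, the adaptors Dok1, Dok2 and Nck1, Rasa1, Bcl10, Nfkb1, Cd28, and the autophagy genes Becn1, Pik3c3 and Uvrag. Cd1d1, which presents lipid to natural killer T cells, and Zbtb16 (PLZF), their lineage factor, were detected as well. Zbtb16, with 41.8 units on replicate 1 and 48.2 on replicate 2, and Rasa1, with 98.9 and 65.9 units, were dimmer than the brightest control spot of replicate 2 and are given for that reason. The 3 partners not well above background were Sh2d1b1, Sh2d1b2 and Egr2, an early factor of receptor signalling.

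Markers of T cells and of other cells that bear SLAM receptors were read beside the family. All 10 T-cell markers (Cd3e, Cd3d, Cd3g, Cd247, Lck, Zap70, Lat, Cd2, Cd5 and Thy1) were detected. So were all 6 double-positive thymocyte markers (among them Cd4, Cd8a, Cd8b1, Rag1 and Dntt). The T-cell and thymocyte markers thus did not go against the label of a T-cell line. Of the markers of other cell types, 13 of 31 (41.9%) were detected, against 51.7% of all named genes. With the weaker flag of a positive and significant signal the share was 71.0%, against 67.5% of all named genes, so which of these shares is higher depends on the detection rule. From B and plasma cells these were Cd79a, Cd22, Sdc1 and Xbp1, 4 of 9, while Ms4a1 and Pax5 were not well above background. From natural killer cells they were Nkg7, Gzma and Prf1, 3 of 8. The killer-cell receptors Klrb1c, Ncr1, Klrd1 and Klrk1 were not. Cd244 was detected, but with the probe that shares a run of at least 15 bases with 16 other probes. From myeloid cells Csf1r, Itgam, Cd14 and Cd68 were detected, 4 of 8, and from dendritic cells Flt3 and Siglech, 2 of 6. Lyz2, Fcgr1, Itgax, Xcr1 and H2-Aa were not well above background. Detected markers ran from 42.5 to 2376 units for B and plasma cells and from 132 to 83363 (Gzma) for natural killer cells. They ran from 44.8 to 6868 (Itgam) for myeloid cells and from 102 to 35034 (Siglech) for dendritic cells. Cd79a and Cd14 were dimmer than the brightest control spot of replicate 2. Several of these markers are also known in T cells, and their part in the SLAM signals was not tested.

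**Figure D2:**
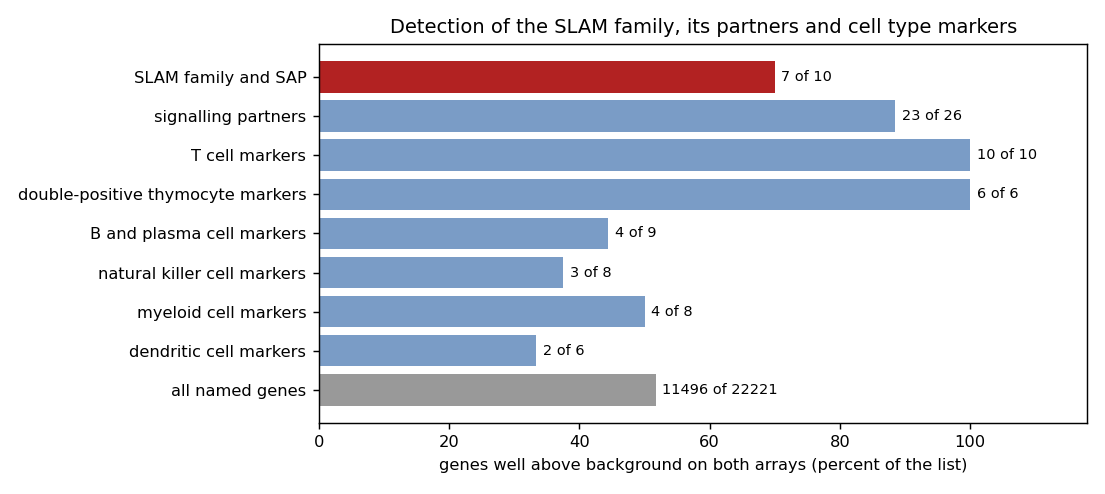
Percent of the genes of each list that were well above background on both arrays, with the counts beside the bars. The SLAM family and SAP stand at 7 of 10, their signalling partners at 23 of 26, and all named genes at 11496 of 22221.

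The family shares a place in the genome as well as a fold. Of the 10 genes, 9 lie on chromosome 1, and 7 of these form a block of 358 kb on mm9 from the Cd244 probe (173515388) to the last Slamf6 probe (173873679), in the order Cd244, Ly9, Slamf7, Cd48, Slamf1, Cd84 and Slamf6. Within this block 6 of 7 family members were detected, against 51.7% of all named genes, and Slamf7 was the exception. The 6 include Cd244 with its widely shared probe run. Slamf9 and Slamf8, neither of them detected, lie 535 kb and 638 kb beyond the block, and Sh2d1a is on chromosome X. The only other gene with a probe inside the block, Gm10521, was not well above background.

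Around the block the pattern was mixed. Of 45 neighbouring genes or transcripts with probes between 250 kb before Cd244 and 250 kb after Slamf8, 22 (48.9%) were detected. Array-wide, 51.7% of named genes and 40.1% of all probes were. Neither share matches these neighbours exactly, since they include intergenic transcripts and probes without a gene name. On the Cd244 side 10 of 18 were detected, first in map order Dedd (0.42 ± 0.15), Nit1 (2.81 ± 0.06), Pfdn2 (3.18 ± 0.10), Klhdc9 (-2.73 ± 0.11), Arhgap30 (3.16 ± 0.33) and Usf1 (0.97 ± 0.33). The other Nit1 probe was not well above background. A probe for an intergenic transcript 43.5 kb before the Cd244 probe had 568 units on replicate 1 and 580 on replicate 2. The probe nearest to Cd244 on that side, 10.9 kb away and without a gene name, was not well above background.

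Between Slamf6 and Slamf8, 11 of 22 neighbours were detected. The planar polarity gene Vangl2, the first beyond Slamf6, was detected with all of its probes, and the probe that represents it had 120 units on replicate 1 and 139 on replicate 2. Further along, the secretase subunit Ncstn had 38.9 units on replicate 1 and 62.9 on replicate 2. The coat protein gene Copa had a log2 value of 4.71 ± 0.04, Pex19 1.48 ± 0.14 and Dcaf8 3.64 ± 0.02. The immunoglobulin superfamily genes Igsf8 and Igsf9 had 3.83 ± 0.16 and 3.05 ± 0.25. A second Igsf9 probe, also detected, had only -2.57 ± 0.25, so the Igsf9 probes disagreed widely. Pigm had 1.27 ± 0.22, Tagln2 5.18 ± 0.30, 8430437O03Rik -0.43 ± 0.54 and a probe without a gene name 449 kb from Cd244 3.31 ± 0.32. The other Pigm probe was not well above background. The immunoglobulin superfamily gene Vsig8, next to Slamf8, was not well above background, nor were Nhlh1, Pea15a, Casq1, Atp1a4, Kcnj9, Kcnj10, 2810449G22Rik and Ccdc19. Beyond Slamf8, 1 of 4 neighbours (Gm2710) was detected.

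**Figure D3:**
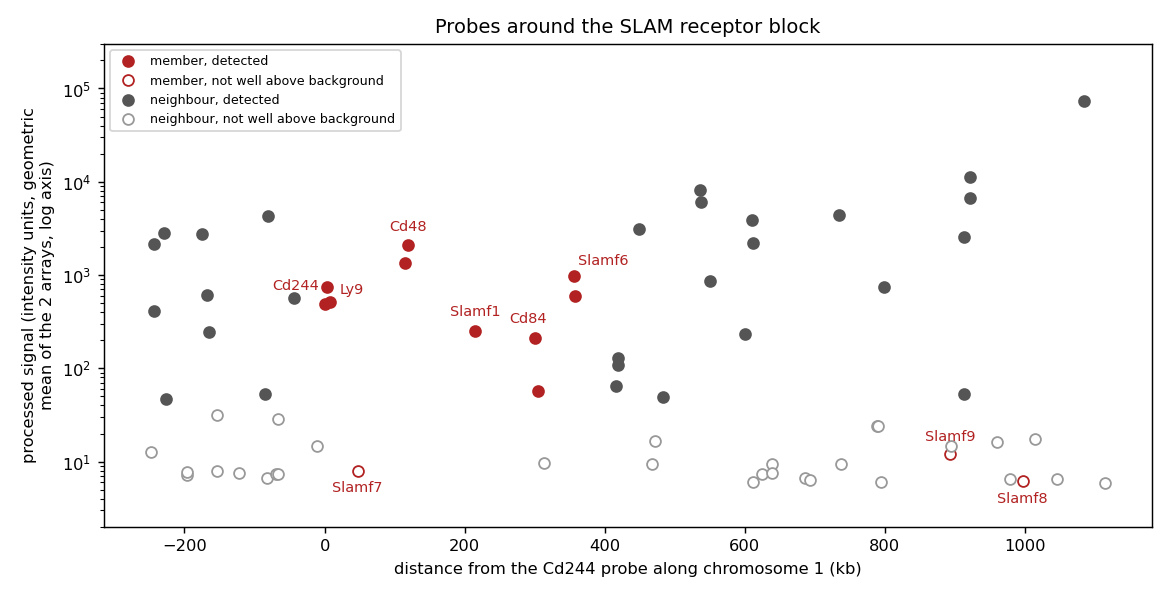
Processed signal (intensity units, log axis, geometric mean of the 2 arrays) of probes around the SLAM block against their distance in kb from the Cd244 probe on chromosome 1. Red points are family members, grey points are neighbours, and open points are not well above background. Filled red points run from 0 to 358 kb with Slamf7 open among them, and Slamf9 and Slamf8 are open far to the right.

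Promoter sequences from RefSeq (GRCm38.p6, 250 bases before to 50 after the gene start, 32851 in all) were at hand for 8 of the 10 genes, without Ly9 and Sh2d1a. The number of CpG dinucleotides was 1 for Slamf6, 2 for Cd244, 3 for Cd84, 4 for Slamf1 and 7 for Cd48 among detected genes. It was 3 for Slamf7, 4 for Slamf8 and 6 for Slamf9 among those not well above background. The median over all promoters was 7, so none of the 8 was above it, and the counts of detected and undetected receptors overlapped.

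The replicates were compared probe by probe, as replicate 1 minus replicate 2 on the log2 scale. Only Cd244 was over 2-fold apart, against 0.783% of all detected genes. Over 2-fold apart and higher on replicate 1, as Cd244 was, were 0.252% of all detected genes. Its difference was 1.11, a ratio of 2.16 after scaling, and 58 of 11496 detected genes (0.505%) were at least as far apart. The scanner software's error on the Cd244 signal was 10.0% on replicate 1 and 10.3% on replicate 2, and the 44 detected spots within 5 rows and columns of it had a median difference of 0.00. Among the probes that share its run, the 10 detected in the same orientation differed by -0.20 to 0.81 and the 4 in the opposite orientation by -0.49 to -0.20. None of these was over 2-fold apart.

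Ly9 was the only detected family gene that was lower on replicate 1. Its probes differed by -0.59 and -0.56, and 4.79% of detected genes were at least as far apart as the first. The probes of Slamf6 differed by 0.26 and 0.27, those of Cd84 by 0.12 and 0.10, and those of Cd48 by 0.17 and -0.04. The gap between the differences of a gene's probes was at most 0.03 in Ly9, Slamf6 and Cd84, and 0.20 in Cd48. Over 2716 genes with 2 detected probes the median gap was 0.23. In Ly9, Slamf6 and Cd84, but not in Cd48, the difference between arrays was larger than this gap. That holds for the differences and not for the levels. The levels of the Cd84 probes (-0.55 and -2.46) and of the Slamf6 probes (1.65 and 0.92) lay further apart than the arrays did. Yet 28.4% of detected genes were at least as far apart as Slamf6, and 61.8% as Cd84. Sh2d1a differed by 0.16 and Slamf1 by 0.01, beside a median absolute difference of 0.16 over all detected genes and 0.17 over the 7 of the family. With 1 array per replicate, none of these differences could be tested.

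**Figure D4:**
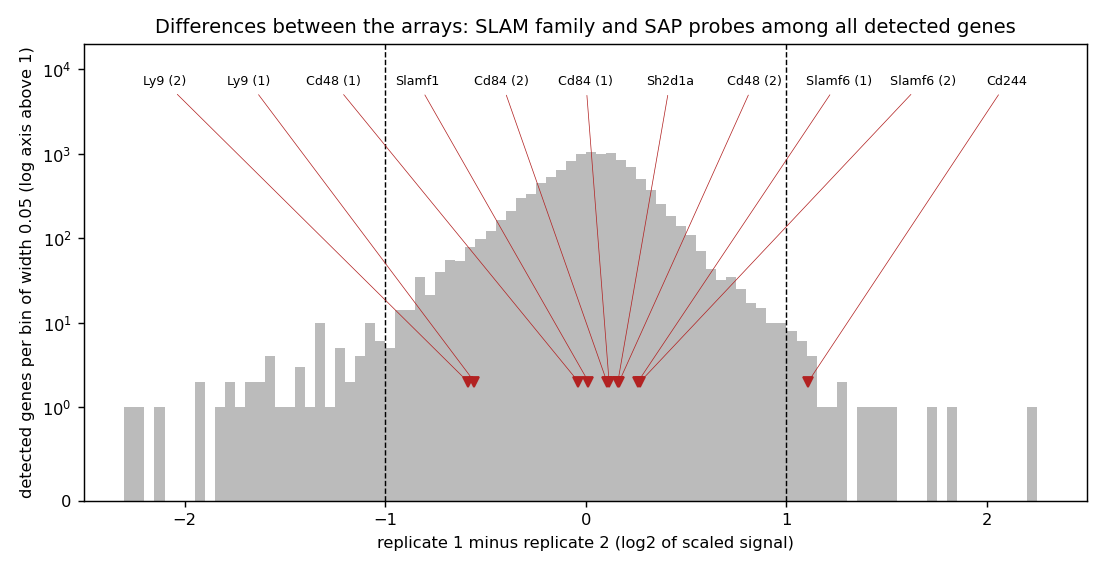
Grey bars count detected genes by their difference between arrays (replicate 1 minus replicate 2, log2 of scaled signal, bins of width 0.05, count axis logarithmic above 1). Red triangles mark the detected SLAM family and SAP probes and dashed lines mark 2-fold. Cd244 at 1.11 lies outside the lines, and the paired probes of Ly9 lie together at -0.59 and -0.56.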

How the data were processed

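Total RNA (200 ng, per the labels) was amplified, labelled with Cy3 and hybridised to 2 Agilent 1-colour arrays. Intensity values are those the authors deposited from Agilent Feature Extraction 10.5.1.1, which per the file headers subtracted a spatial background, removed a multiplicative trend and set surrogate values near background. A table of log2 values, also deposited by the authors, has unstated scale and centring. It followed the scanner signal with a slope of 1.00 on replicate 1 and 1.01 on replicate 2, its column medians were both 5.18, its lowest value was 5.13 on both, and the offset and the background step behind that floor are not stated. It served as an alternative. The deposited software flags gave detection.

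Outlier spots were left out, log2 signals were averaged per probe, and each array's 75th percentile was subtracted. Each gene was represented by whichever detected probe was brightest on average. Probes were named through accession (26762), symbol (3819) or unique synonym (639) in a RefSeq table of GRCm38.p6, and 24461 kept their file name. Each array had 308 negative control spots, and 42.5% of probes on replicate 1 and 41.2% on replicate 2 were well above background.

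The members and lists were chosen with earlier results of these data known. All members are named, with the partners, the detected markers and the neighbours in map order; a few genes of these lists are not reported here by name but are kept in every count. A planned use of protein sequences was replaced by translation of probes, and the shared run of the Cd244 probe was examined after its values were seen. The gene rule was run on simulated differences between arrays. The simulation kept the detection calls of the data, so it did not test the detection rule. Alternatives covered detection, scaling, normexp with offset 50 followed by quantile normalization (limma 3.58.1, R 4.3.3), the deposited table, the gene value and each replicate left out. Python 3.11.15 and pandas 2.3.3 were used.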

Additional observations from a re-analysis of the deposited data

How the results depend on the processing

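The 7 detected genes of the family stayed at 7 when detection on 1 array sufficed, when all probes of a gene had to be detected, when the signal had to exceed every negative control spot, and without replicate 1 or without replicate 2. A positive and significant signal made it 8. Partners numbered 20 (76.9%) to 23 (88.5%) and locus neighbours 19 (42.2%) to 31 (68.9%). Over the same settings, 44.6% to 67.5% of all named genes were detected. Markers of other cell types moved from 13 to 22 (71.0%, against 67.5% of all named genes) with a positive and significant signal and to 6 (19.4%, against 44.6%) when all probes were required, and lay at 14 and 15 with 1 replicate left out. The count of family genes over 2-fold apart stayed at 1 with 2 exceptions. With normexp and quantile normalization it was 0 because Cd244 then differed by 0.99. With Cd244 left out, an alternative chosen after seeing the data, it was 0 as well. The share over all detected genes was 0.261% with normexp and quantile normalization. It was 0.687% to 4.23% in the other settings, highest with a positive and significant signal. The Cd244 difference ranged from 0.99 to 1.34 and that of Ly9 from -0.63 to -0.36 over all settings. That of Slamf1 changed sign once, to -0.02 with the percentile over detected probes. Scaling by the array median shifted the median difference of all detected genes to 0.26. No paired analysis was possible because the 2 arrays form 1 group. Weak signals near background, as those of Slamf9 and of the second Cd84 probe, are limited by the negative controls.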
